A study of Homo sapiens with 2 samples.

Results

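Long noncoding and antisense RNAs were described in HUVECs, primary endothelial cells taken from the umbilical vein, that had lined microfluidic channels under red cell flow. The members were all gene symbols that start with LINC or SNHG, that end in HG or in -AS and a digit, or that are MALAT1, NEAT1, MEG3, KCNQ1OT1, GAS5 or NORAD, where both libraries together held 100 or more unique molecular identifiers (UMIs, each standing for 1 captured RNA molecule). Of 3422 matching symbols among 36601 genes in the files, 266 passed this minimum, and they are 266 of the 11098 genes that did so. By class, 156 were antisense genes, 64 were LINC genes (long intergenic noncoding RNAs), 20 were SNHG genes (small nucleolar RNA host genes), 20 had another symbol ending in HG, which marks host genes of microRNAs in all but 1, PGGHG, and 6 were the genes listed by name.

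In the hRBC group the channels were perfused for 4 hours with healthy red blood cells (hRBCs). In the 5% pdRBC group 5% of the red cells in the suspension had been pharmacologically dehydrated (pdRBCs) with nystatin and high sucrose, which raises their hemoglobin concentration and lowers their deformability, as in sickle cell disease. Both groups share the HUVECs, the device, the medium and the time. Single cells were sequenced from the 5′ end of their RNA, with 1 library per group, so the treatment and the library cannot be told apart, no test between groups exists, and every interval given covers counting error only.

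Long noncoding RNAs are transcripts without a known protein product. Some stay in the nucleus: MALAT1 lies in nuclear speckles, where splicing factors gather, NEAT1 is the scaffold of paraspeckles, and KCNQ1OT1 acts on its own imprinted locus. Others are processed in the nucleus and then reach the cytoplasm, where the spliced remnants of SNHG genes are read by ribosomes and decayed, while their introns give small nucleolar RNAs that guide the modification of ribosomal RNA. Antisense genes are transcribed from the strand opposite to a protein-coding gene and often start close to it.

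The hRBC library held 3858 barcodes and the 5% pdRBC library 1635, with medians of 1381 and 9425 UMIs per barcode. Kept cells were barcodes with at least 1000 UMIs and 500 genes in which mitochondrial (MT) genes took no more than 20% of the UMIs. This left 2555 hRBC cells with 13335148 UMIs and 1601 5% pdRBC cells with 16127985 UMIs. The kept cells still differed in depth, with medians of 2175 and 9566 UMIs. The libraries shared 9 barcode sequences, 6 of them among kept cells. All 10 endothelial markers on a list (PECAM1, CDH5, VWF and others) were measured, at a summed 4102 CPM (UMIs of a gene per 1000000 UMIs of all genes) in hRBC and 3910 CPM in 5% pdRBC. None of the 5 erythroid (12 and 1 UMIs in all), 9 leukocyte (6 and 15 UMIs) or 3 platelet markers (0 UMIs) reached 100 UMIs. Of 6 fibroblast and mural cell markers 1 reached it, RGS5, at 369 and 328 CPM.

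The members took a similar and small share of the RNA in both libraries. In hRBC cells they held 1.703% of all UMIs, with a 95% Clopper-Pearson interval from 1.696% to 1.71%. In 5% pdRBC cells they held 1.759% (1.753% to 1.765%). A few genes carried most of it: MALAT1 held 45.25% of all member UMIs, NEAT1 12.76% and the 10 members with the most UMIs together 73.97%. At the other end, 100 of the 266 members had under 200 UMIs and only 44 had 1000 or more. These are shares of UMIs and not levels per length of transcript.

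Most members differed little between the libraries, and most of those that differed more were antisense and LINC genes with few UMIs. The fold is the CPM of 5% pdRBC cells over that of hRBC cells, and a member is called higher or lower where the fold reached 1.5 and its 95% interval left out 1. By this rule 22 of 266 members were higher and 9 were lower with 5% pdRBC, against 1.59% and 1.13% of all 11098 genes. That is 8.27% and 3.38% of the members. At 2-fold 5 were higher and 3 lower, against 0.27% of all genes each way. Among genes with 100 to under 1000 UMIs, 2.35% were higher and 1.7% lower, against 9.46% and 4.05% of the 222 members in that range. The range is wide and 100 of these members had under 200 UMIs, so it does not match members and genes closely in counts. With a minimum of 500 UMIs 1 of 77 members was higher and 0 were lower, against 0.672% and 0.532% of all genes. On the interval alone, without the limit of 1.5, the 266 members were closer to all 11098 genes. Above 1 lay 18.0% against 15.3%, and below 1 lay 9.4% against 12.2%. The median log2 fold was 0.06 over the members and 0.02 over all genes. No SNHG gene and none of the 6 genes listed by name was called in either direction.

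**Figure D1:**
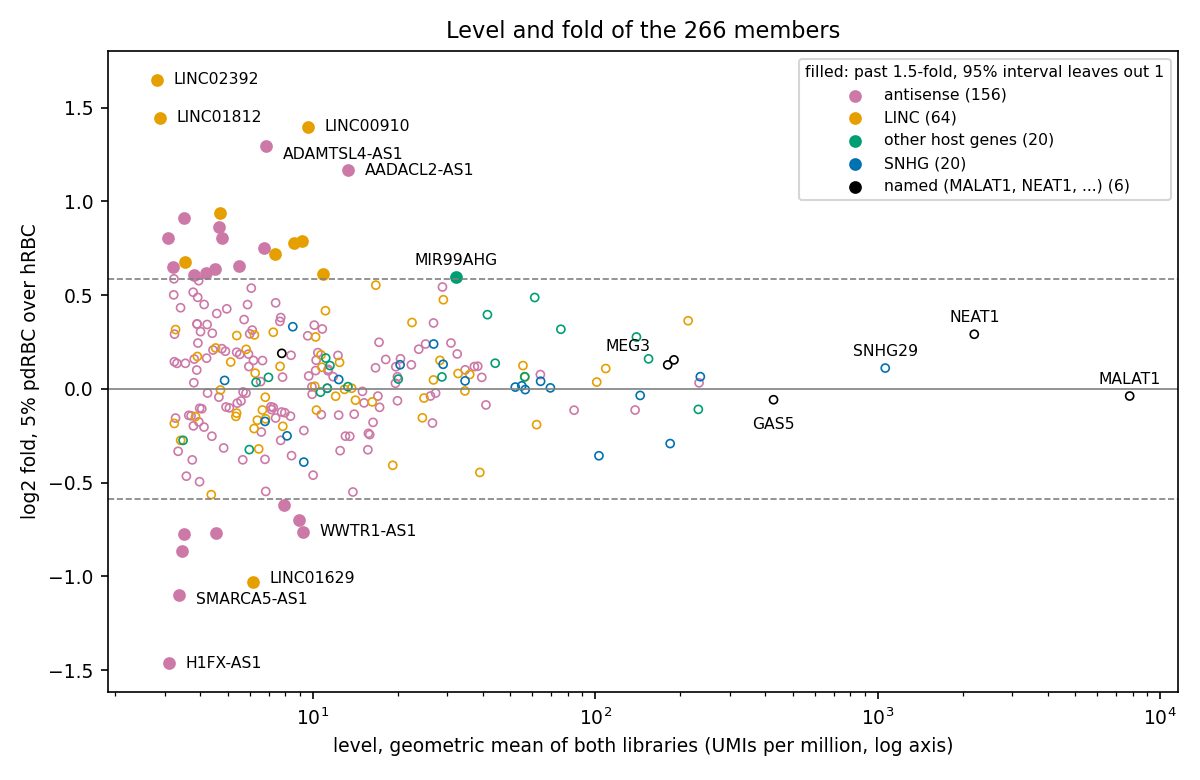
Log2 fold of 5% pdRBC over hRBC (vertical axis) against the level of each of the 266 members (horizontal axis, geometric mean of the CPM of both libraries, log axis), 1 point per member, coloured by class, with dashed lines at 1.5-fold. All but 1 of the filled points, 22 higher and 9 lower, lie toward the low end of the level axis, with MIR99AHG (26.1 and 39.4 CPM) the exception, and the abundant named and SNHG genes lie between the dashed lines.

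Of the nuclear RNAs, NEAT1 was somewhat higher with 5% pdRBC and MALAT1 was nearly level. NEAT1 (chr11:65422774-65445540, plus strand, GRCh38) was at 1987 CPM in hRBC cells and 2432 CPM in 5% pdRBC cells, a 1.22-fold difference (1.21 to 1.24). MALAT1, which lies downstream on the same chromosome (chr11:65497688-65506516), was at 7906 and 7702 CPM, 0.974-fold (0.966 to 0.982). MEG3, an imprinted and maternally expressed RNA studied in endothelial growth, was at 173 and 189 CPM, 1.09-fold (1.04 to 1.15). KCNQ1OT1, with 97 and 134 UMIs, was at 7.27 and 8.31 CPM, and its interval held 1 (0.873 to 1.5). In the cells of 10000 or more UMIs, 538 hRBC and 726 5% pdRBC, NEAT1 was 1.14-fold higher (1.12 to 1.16), MALAT1 1.01-fold (1.00 to 1.02) and MEG3 0.986-fold (0.919 to 1.06).

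The proteins that build paraspeckles with NEAT1 did not follow it in one direction. Of 10 on a list 5 had a fold above 1, none reached 1.5-fold either way, and their median log2 fold was 0.01 beside 0.02 over all genes. SFPQ, a core paraspeckle protein, was at 138 and 144 CPM, and NONO, its partner, at 79.9 and 81.5 CPM. HNRNPH3, an RNA-binding protein of paraspeckles, was at 72.5 and 58.8 CPM, 0.811-fold (0.740 to 0.888).

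The larger contrast for these RNAs was within each library, by the MT share of a barcode. Barcodes with 5% or more MT UMIs (150 of 3858 for hRBC and 71 of 1635 for 5% pdRBC) were set against those under 5%, with MT UMIs left out of the denominator. MALAT1 was at 7992 CPM below and 26250 CPM above the limit in hRBC, 3.28-fold (3.19 to 3.38), and at 7629 and 28830 CPM in 5% pdRBC, 3.78-fold (3.68 to 3.88). NEAT1 was 4.51-fold higher in hRBC (4.28 to 4.75) and 4.85-fold in 5% pdRBC (4.64 to 5.07). MEG3 was 3.36-fold higher (2.71 to 4.09) and 4.87-fold higher (4.13 to 5.67). Together with KCNQ1OT1 these genes held 1.01% of non-MT UMIs below the limit and 3.56% above it in hRBC, and 1.02% and 4.13% in 5% pdRBC.

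Other members moved with them. LINC00607 (chr2:215611563-215843722), a LINC gene transcribed in endothelium, went from 188 to 475 CPM in hRBC, 2.54-fold (2.0 to 3.14), and from 237 to 1094 CPM in 5% pdRBC, 4.63-fold (4.00 to 5.32). The microRNA host genes MIR31HG (2.37-fold and 4.44-fold), MIR181A1HG (2.64-fold and 3.28-fold) and MIR4435-2HG (1.69-fold and 2.29-fold), and the antisense gene NUTM2A-AS1 (1.54-fold and 2.09-fold), were higher above the limit in both libraries as well. These 8 members were called higher in both, 6 were called lower in both, and 25 of the 26 members that could be measured in both libraries lay on the same side of 1. Over all 2926 genes measured in both, 18.4% were called higher in both, 17.0% lower in both, and 82.6% lay on the same side, so such agreement was common.

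The counts by library read against a background in which many genes moved. In hRBC 9 of 26 measured members were higher above the limit and 8 were lower, against 22.6% and 21.8% of 2970 genes. In 5% pdRBC 10 of 30 were higher and 10 lower, against 25.0% and 31.7% of 3206 genes. Barcodes above the limit were shallower, with median UMIs of 874 against 1416 in hRBC and 2483 against 9652 in 5% pdRBC. Within barcodes of 1000 to under 5000 UMIs the nuclear RNAs summed to 3.23-fold (3.12 to 3.35) in hRBC and 3.36-fold (3.24 to 3.48) in 5% pdRBC. There 6 of 16 measured members were higher and 4 lower in hRBC, against 15.9% and 25.9% of genes, and 7 of 13 were higher and 5 lower in 5% pdRBC, against 27.0% and 44.3%. The part of depth in the folds outside this range was not tested.

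**Figure D2:**
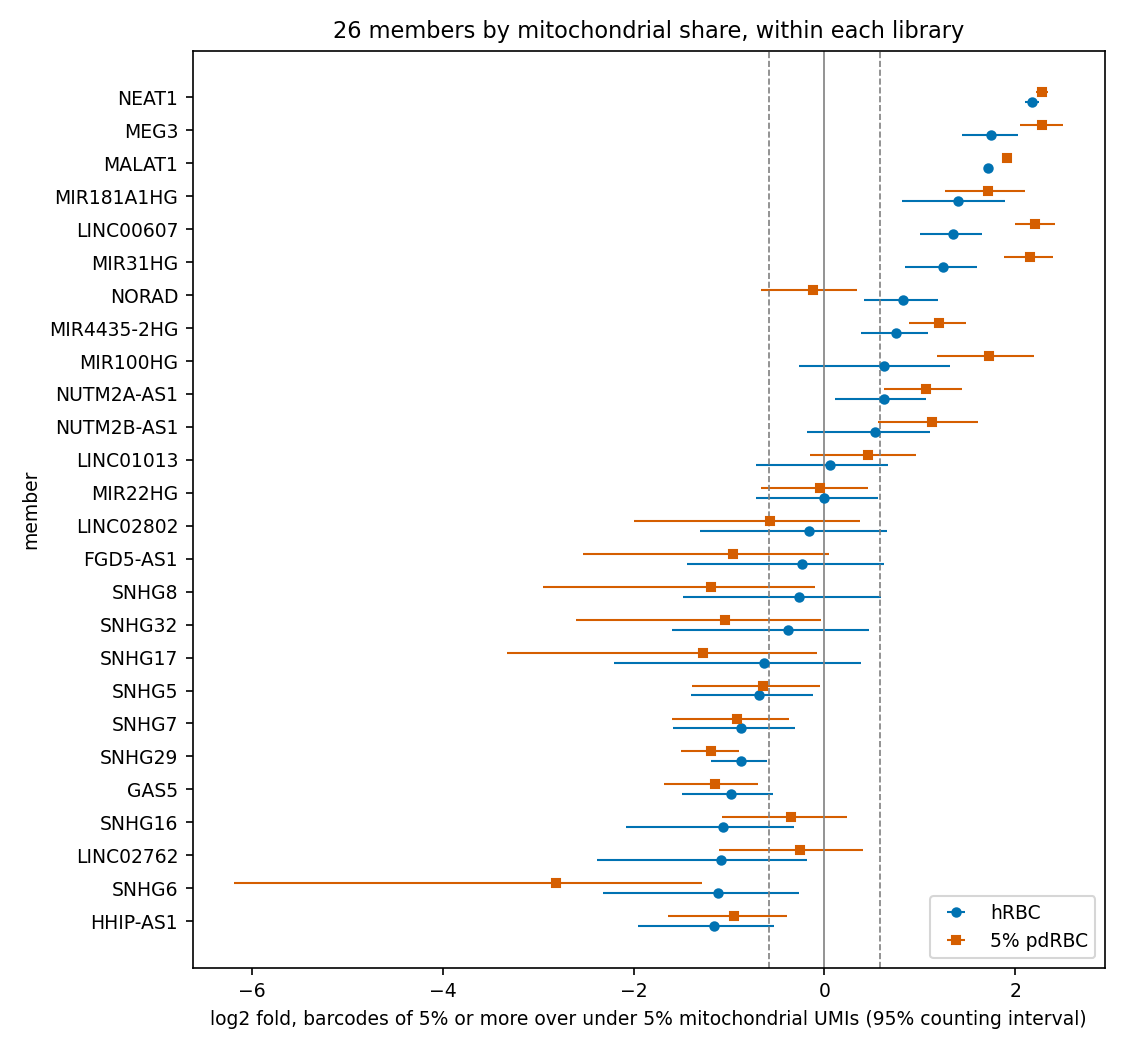
Log2 fold of barcodes with 5% or more over those under 5% MT UMIs (horizontal axis) for the 26 members measured in both libraries (vertical axis), with 95% counting intervals, circles for hRBC and squares for 5% pdRBC, and dashed lines at 1.5-fold. NEAT1, MEG3, MALAT1, MIR181A1HG, LINC00607 and MIR31HG lie to the right in both libraries, the SNHG genes and GAS5 to the left, and NORAD is to the right in hRBC only.

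The difference lay mostly between barcodes of 2% to 5% and those of 5% to 10% MT share. In 5% pdRBC MALAT1 was at 7808 CPM in barcodes of 0% to 2% MT share, at 7316 CPM at 2% to 5%, at 27400 CPM at 5% to 10% (30 barcodes) and at 32310 CPM at 10% to 20% (27 barcodes). In hRBC it was at 7108, 9169 and 24510 CPM from 0% to 2%, from 2% to 5% and from 5% to 10%. SNHG29 ran the other way, at 1089, 1215, 537 and 408 CPM over the 4 ranges in 5% pdRBC.

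**Figure D3:**
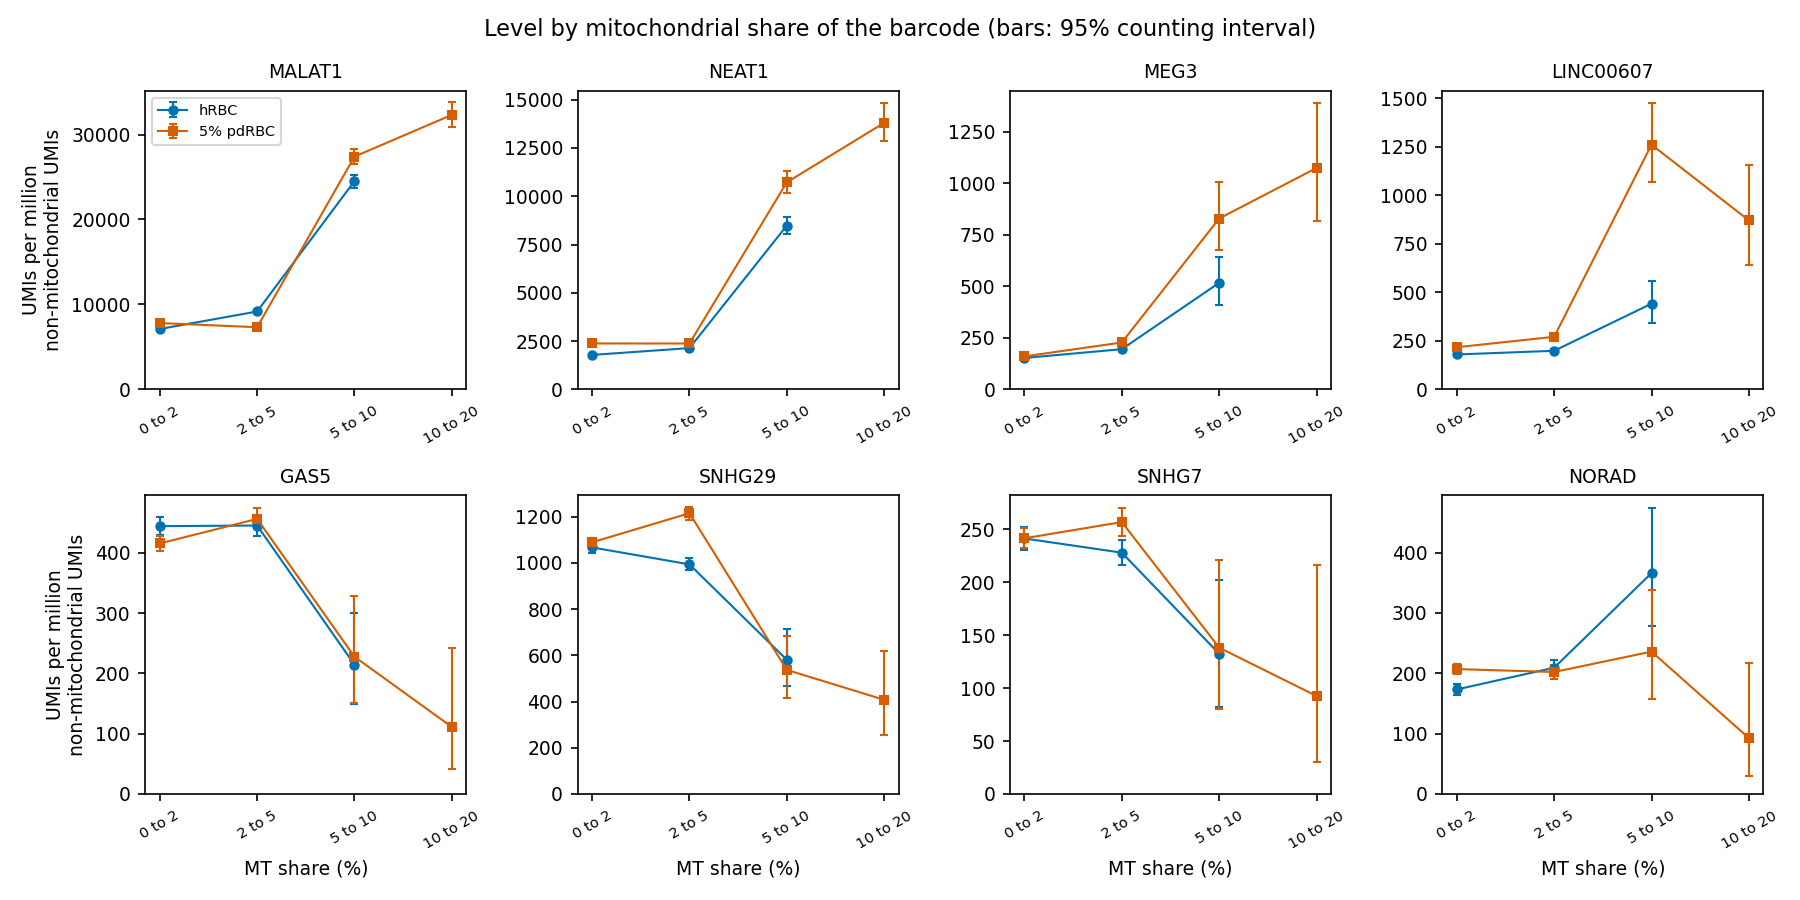
Level of 8 members (vertical axes, CPM over non-MT UMIs, each from 0) by range of MT share (horizontal axes, percent) in hRBC (circles) and 5% pdRBC (squares), with 95% counting intervals; ranges with under 20 barcodes in a library are not drawn. MALAT1, NEAT1, MEG3 and LINC00607 are several times higher from 5% on, and GAS5, SNHG29 and SNHG7 are lower there.

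The snoRNA host genes were at even levels between the libraries. GAS5, a growth arrest transcript whose introns hold many C/D box snoRNAs, and the 20 SNHG genes summed to 0.261% of UMIs in hRBC and 0.263% in 5% pdRBC, 1.01-fold (0.994 to 1.02), with 13 of 21 above 1. SNHG29, the one with the most UMIs, was at 1024 and 1106 CPM, 1.08-fold (1.06 to 1.11), and GAS5 at 437 and 420 CPM, 0.961-fold (0.928 to 0.995). SNHG5 was at 204 and 167 CPM, 0.817-fold (0.774 to 0.862), and SNHG6 at 117 and 91.2 CPM, 0.781-fold (0.727 to 0.839), the only 2 members of the class with over 1000 UMIs whose fold was under 0.9. SNHG7 (230 and 241 CPM) and SNHG16 (146 and 143 CPM) had intervals that held 1.

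The proteins that bind the snoRNAs had folds slightly below 1. Of 8 snoRNP proteins on a list none had a fold above 1, 3 had an interval below 1 and none reached 1.5-fold, and the median log2 fold was -0.09 beside 0.02 over all genes. NOP10, of the H/ACA complex, was at 300.5 and 250.5 CPM (0.834-fold, 0.798 to 0.871), while SNU13, of the C/D complex, was at 171 and 170 CPM. The cytosolic ribosomal protein genes, whose mRNAs share with SNHG genes a pyrimidine-rich first stretch called a 5′ terminal oligopyrimidine tract, summed to 17.0% and 16.2% of UMIs, 0.953-fold.

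By MT share the snoRNA hosts lay on the side of the ribosomal protein genes, opposite to the nuclear RNAs. GAS5 was at 445 CPM below and 223 CPM above the limit of 5% in hRBC, 0.508-fold (0.356 to 0.686), and at 431 and 192 CPM in 5% pdRBC, 0.453-fold (0.312 to 0.619). SNHG29 was 0.544-fold (0.439 to 0.660) and 0.440-fold (0.353 to 0.536), SNHG7 0.546-fold and 0.529-fold, and SNHG6 0.462-fold and 0.142-fold, the last from 2 UMIs. All 9 measured hosts lay below 1 in hRBC and 9 of 10 in 5% pdRBC, where SNHG3 was the exception at 1.28-fold (0.655 to 2.12). The class summed to 0.608-fold (0.538 to 0.683) and 0.587-fold (0.521 to 0.657), and the ribosomal protein genes to 0.524-fold and 0.453-fold.

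The start sites show which hosts have such a tract at the start of their RefSeq model. The windows below run from 30 bases before to 30 bases from the annotated start (RefSeq, GRCh38.p14, strand of the gene), with the run of C and T letters that begins at the start in capitals. SNHG7, SNHG5, SNHG12 and SNHG32, whose window is not printed, begin with such a run. GAS5 and SNHG29, the hosts with the most UMIs of all, have none at the annotated start printed here.
SNHG7 (chr9:136728155-136728214, minus strand): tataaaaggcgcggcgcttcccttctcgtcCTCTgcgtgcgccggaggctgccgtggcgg
SNHG5 (chr6:85678704-85678763, minus strand): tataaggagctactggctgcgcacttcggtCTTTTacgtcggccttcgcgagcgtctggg
SNHG12 (chr1:28581844-28581903, minus strand): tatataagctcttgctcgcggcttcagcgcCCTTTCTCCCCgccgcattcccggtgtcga
GAS5 (chr1:173869016-173869075, minus strand): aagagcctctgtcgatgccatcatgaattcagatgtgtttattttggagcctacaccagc
SNHG29 (chr17:16438957-16439016, plus strand): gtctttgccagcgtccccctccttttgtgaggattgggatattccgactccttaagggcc
A C at the annotated start followed by 3 letters that are each C or T was found in 4 of 17 of these hosts with an entry (23.5%), in 49 of 68 ribosomal protein genes (72.1%) and in 6.85% of 27195 genes in the table. Annotated starts can differ from those the cells use, by a few bases or by more, and only starts with a RefSeq entry were searched. The absence of a run says only that none begins at the annotated base. It does not show that RNAs of GAS5, SNHG29 or other hosts lack the tract. The SNHG29 window holds C and T letters in a row shortly before its annotated start.

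NORAD, a cytoplasmic RNA that guards chromosome number, was slightly higher with 5% pdRBC in summed UMIs, but not with every cell weighted equally. Between libraries it was at 180 and 201 CPM, 1.11-fold (1.06 to 1.17), and 1.31-fold (1.22 to 1.40) in cells of 10000 or more UMIs. With each cell thinned to 2000 UMIs it was 1.03-fold (0.920 to 1.16), and with every cell weighted equally 0.924-fold. By MT share it was 1.77-fold higher above 5% in hRBC (189 and 332 CPM, 1.33 to 2.28) and 0.924-fold in 5% pdRBC (205 and 187 CPM, 0.633 to 1.27). It was the only 1 of the 26 members measured in both libraries with folds on different sides of 1 there. The 5% pdRBC interval holds 1, and the difference between the libraries was not tested.

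By UMI depth the libraries went apart for the nuclear RNAs at the shallow end. In barcodes of 1000 to under 2000 UMIs MALAT1 was at 10680 CPM in hRBC (1184 barcodes) and 23550 CPM in 5% pdRBC (48 barcodes). The levels came together with depth, at 10460 and 12470 CPM for 2000 to under 5000 UMIs, 9592 and 9246 CPM for 5000 to under 10000, and 6724 and 6804 CPM from 10000 on. NEAT1 was at 1819 and 5376 CPM in barcodes of 1000 to under 2000 UMIs and at 1915 and 2183 CPM from 10000 on. SNHG29 was higher with depth in both, from 883 to 1094 CPM in hRBC and from 529 to 1145 CPM in 5% pdRBC over the same ranges.

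A high MT share was more frequent among the shallow barcodes of 5% pdRBC. It was found in 31.2% of those with 1000 to under 2000 UMIs, against 2.36% in hRBC. Among barcodes under 5% MT share in that range, MALAT1 was at 22570 CPM in 5% pdRBC (33 barcodes) and 10410 CPM in hRBC, and NEAT1 was at 4339 and 1747 CPM. From 2000 to under 5000 UMIs MALAT1 was at 9096 and 9754 CPM under 5%, where with all barcodes it had been higher in 5% pdRBC. The part of MT share in the difference at the shallow end was not tested.

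**Figure D4:**
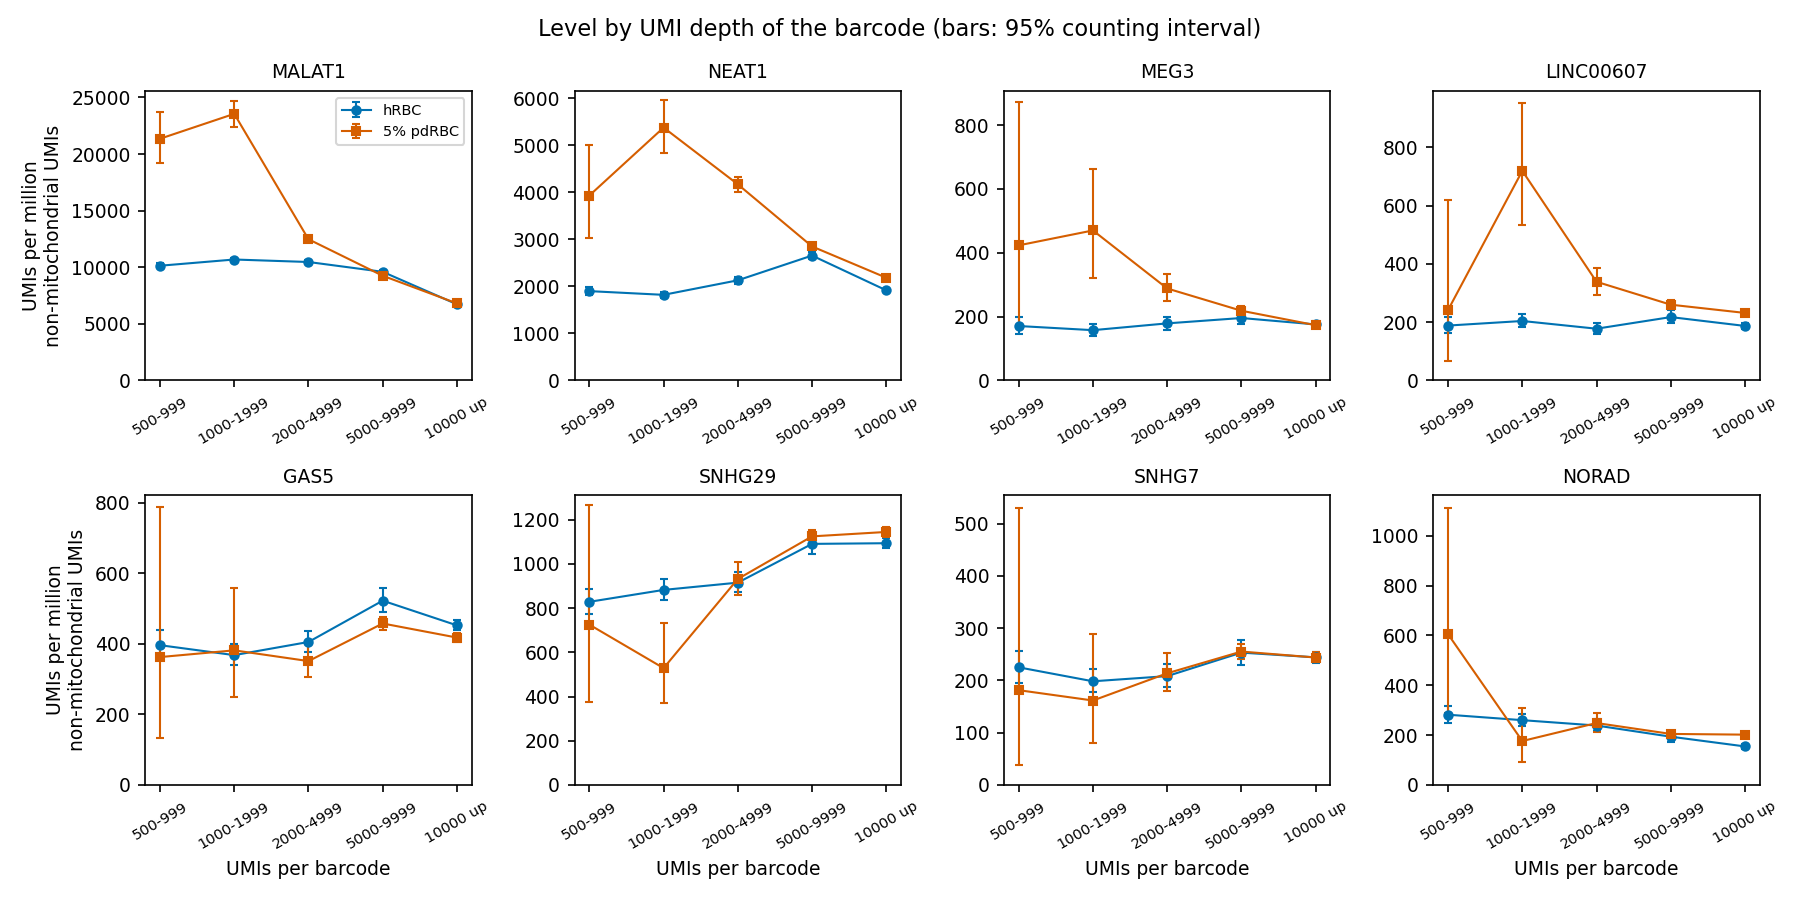
Level of 8 members (vertical axes, CPM over non-MT UMIs, each from 0) by range of UMIs per barcode (horizontal axes) in hRBC (circles) and 5% pdRBC (squares), with 95% counting intervals. MALAT1 and NEAT1 of 5% pdRBC stand high in the shallow ranges, which hold 28 and 48 barcodes, and come close to the hRBC values from 5000 UMIs on, with NEAT1 still higher from 10000 on (1915 and 2183 CPM), while SNHG29 rises with depth in both.

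Within hRBC, where 1180 kept cells had 1000 to under 2000 UMIs and 769 had 5000 or more, NORAD and several antisense genes were lower in deep cells. Of 132 measured members 3 were called higher and 13 lower, against 0.94% and 6.27% of 8935 genes. NORAD was at 261 CPM in shallow and 162 CPM in deep cells, 0.619-fold (0.556 to 0.692). WWTR1-AS1, which runs against the YAP partner gene WWTR1, was at 36.8 and 4.21 CPM, 0.115-fold (0.0748 to 0.173), from 59 and 41 UMIs, while WWTR1 itself was 0.721-fold. VIM-AS1 (26.2 and 7.18 CPM, 0.273-fold, 0.184 to 0.412) and PCBP1-AS1 (28.7 and 7.90 CPM, 0.274-fold, 0.189 to 0.406) were lower in deep cells, while VIM, which encodes vimentin, was 0.986-fold and PCBP1, an RNA-binding protein gene, 1.00-fold. URB1-AS1 was higher in deep cells (4.99 and 11.2 CPM, 2.12-fold, 1.10 to 5.32). In 5% pdRBC, with 44 shallow and 1370 deep kept cells, 13 members could be measured, of which 2 were higher and 5 lower in deep cells, against 32.3% and 13.4% of 1022 genes.

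The microRNA host genes are genes whose transcripts hold microRNA hairpins. Of the 20 genes with another symbol ending in HG, all but PGGHG (19) have a mature microRNA of RefSeq inside their bounds on their strand, as do 28 members in all. With 5% pdRBC 16 of the 20 had a fold above 1, 6 had an interval above 1 and 1 had an interval below 1. Over all genes 6004 of 11098 had a fold above 1, 15.3% had an interval above 1 and 12.2% had one below 1. The 20 had a median of 757 UMIs, and an interval leaves out 1 more easily where UMIs are many. Together the 20, PGGHG included, summed to 1.11-fold (1.08 to 1.13). The mature microRNAs themselves are too short for this assay and were not measured. The 5′ arms and the 3′ arms named here are those of the hosts whose intervals lay above 1 and of MIR100HG, which shares its seeds with MIR99AHG (RefSeq, GRCh38.p14, 5′ to 3′, seed bases 2 to 8 in capitals).
MIR99AHG, miR-99a-5p: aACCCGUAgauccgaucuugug
MIR100HG, miR-100-5p: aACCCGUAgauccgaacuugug
MIR99AHG, let-7c-5p: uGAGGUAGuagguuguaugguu
MIR100HG, let-7a-5p: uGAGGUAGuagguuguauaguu
MIR99AHG and MIR100HG, miR-125b-5p: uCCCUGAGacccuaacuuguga
MIR155HG, miR-155-5p: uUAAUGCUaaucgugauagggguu
MIR222HG, miR-221-3p: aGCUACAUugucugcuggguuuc
MIR222HG, miR-222-3p: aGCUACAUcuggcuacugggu
MIR181A1HG, miR-181a-5p: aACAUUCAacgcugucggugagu
MIR181A1HG, miR-181b-5p: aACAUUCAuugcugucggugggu
MIR22HG, miR-22-3p: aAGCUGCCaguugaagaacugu
MIR31HG, miR-31-5p: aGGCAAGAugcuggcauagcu

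MIR99AHG and MIR100HG carry the same 3 seeds on chromosomes 21 and 11, and only MIR99AHG was called higher. It was at 26.1 and 39.4 CPM (348 and 636 UMIs), 1.51-fold (1.32 to 1.73), and 1.33-fold (1.11 to 1.59) in cells of 10000 or more UMIs. MIR100HG was at 55 and 57.6 CPM, 1.05-fold (0.949 to 1.15). The difference between these folds was not tested. MIRLET7BHG, which holds let-7a and let-7b of the same let-7 seed, was at 10.5 and 11.8 CPM, with an interval that held 1 (0.897 to 1.41).

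The 5 other hosts with an interval above 1 were higher by less than 1.5-fold. MIR155HG, whose miR-155 is induced by inflammatory signals, was at 51.6 and 72.4 CPM, 1.40-fold (1.28 to 1.54), and 1.37-fold (1.22 to 1.55) in cells of 10000 or more UMIs. MIR222HG, whose miR-221 and miR-222 share a seed and target KIT in endothelium, was at 36.2 and 47.7 CPM, 1.32-fold (1.17 to 1.48). MIR181A1HG, whose miR-181b dampens NF-kB signalling, was at 67.7 and 84.5 CPM, 1.25-fold (1.15 to 1.36). MIR22HG was at 127 and 154 CPM, 1.21-fold (1.14 to 1.29), and MIR31HG, whose miR-31 targets E-selectin, at 146 and 163 CPM, 1.12-fold (1.05 to 1.19). MIR4435-2HG was the host whose interval lay below 1, at 241 and 223 CPM, 0.927-fold (0.884 to 0.973). The intervals of the remaining 12 microRNA hosts held 1, among them MIR29B2CHG (13.3 and 13.4 CPM), MIR34AHG (11.2 and 11.3 CPM), MIR217HG (6.82 and 7.13 CPM) and MIR503HG (3.82 and 3.16 CPM). Of 5 genes of microRNA processing (DROSHA, DGCR8, XPO5, DICER1, AGO2) none reached 1.5-fold, and DGCR8, the partner of DROSHA, was at 20.6 and 25.1 CPM, 1.21-fold (1.04 to 1.42).

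The LINC genes with most UMIs moved little, and 9 thinly counted ones were called higher. LINC00607 was at 188 and 242 CPM, 1.29-fold (1.22 to 1.35), and 1.24-fold (1.16 to 1.32) in cells of 10000 or more UMIs. LINC01013 (105 and 113 CPM, 1.08-fold, 1.01 to 1.16) and LINC02762 (100 and 103 CPM, 1.03-fold, 0.954 to 1.10) were near level, and LINC02802 was at 66.3 and 58.1 CPM, 0.876-fold (0.799 to 0.962). LINC00910 had the most UMIs of the LINC genes called higher, with 79 in hRBC and 253 in 5% pdRBC. It was at 5.92 and 15.7 CPM, 2.64-fold (2.05 to 3.45), and 2.78-fold (2.06 to 3.86) in cells of 10000 or more UMIs. LINC02392, with 21 and 81 UMIs, was 3.13-fold higher (1.95 to 5.43), and LINC01812, with 23 and 77 UMIs, 2.73-fold (1.72 to 4.62). Both lie close to the minimum of 100 UMIs and reached it mainly through 5% pdRBC, the library where they were higher. Over all barcodes LINC01812 was 1.99-fold (1.32 to 3.10). LINC02798 (1.92-fold, 1.35 to 2.80), LINC01004 (1.73-fold, 1.35 to 2.24) and LINC00161 (1.72-fold, 1.33 to 2.25) followed, and LINC01524, LINC00174 and LINC01619 lay between 1.53-fold and 1.65-fold.

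Among antisense genes 12 of 156 were called higher, with AADACL2-AS1 at the fore. This gene (chr3:151751443-151928175, minus strand) had 119 and 324 UMIs and was at 8.92 and 20.1 CPM, 2.25-fold (1.82 to 2.80). Its bounds overlap AADAC on the opposite strand, a gene for a microsomal deacetylase, which was at 1.05 and 6.08 CPM, 5.62-fold (3.29 to 11.0). ADAMTSL4-AS1, with 58 and 173 UMIs, was at 4.35 and 10.7 CPM, 2.45-fold (1.82 to 3.38), and it overlaps MCL1, a survival gene on the same strand, which was at 99.8 and 125 CPM, 1.25-fold (1.17 to 1.34). ITGA9-AS1 (1.88-fold, 1.25 to 2.93), ADAMTS9-AS2 (1.82-fold, 1.28 to 2.66), PKIA-AS1 (1.75-fold, 1.24 to 2.53) and PSMD6-AS2 (1.75-fold, 1.13 to 2.79) came next. Whether strand was used in counting is not given, so reads of overlapping genes cannot be told apart with certainty. Of the 22 members called higher 13 overlap another measured gene, and in 1 pair, AADACL2-AS1 and AADAC, the other gene was called higher too.

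The deepest kept cells gave a similar picture for the higher calls, though they hold most of the UMIs behind those calls and are no independent support. In cells of 10000 or more UMIs 14 of 182 measured members were higher and 5 lower, against 2.21% and 1.02% of 9993 genes. Of the 22 members called higher over all kept cells 10 had enough UMIs there, all 10 had a fold above 1 and 8 were called again, among them AADACL2-AS1 (2.86-fold, 2.17 to 3.86), ADAMTSL4-AS1 (2.34-fold, 1.62 to 3.53) and LINC00161 (2.16-fold, 1.57 to 3.03).

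The 9 members called lower were 8 antisense genes and LINC01629. H1FX-AS1, which runs against a linker histone gene, had 69 and 30 UMIs and was at 5.17 and 1.86 CPM, 0.363-fold (0.226 to 0.559). SMARCA5-AS1 (66 and 37 UMIs, 0.466-fold, 0.301 to 0.704) and LINC01629 (117 and 69 UMIs, 0.489-fold, 0.357 to 0.662) followed. DLGAP4-AS1, PTPRG-AS1, EMC1-AS1, WWTR1-AS1, PRKCA-AS1 and VPS9D1-AS1 lay between 0.549-fold and 0.651-fold. Of the 9, 3 had enough UMIs in cells of 10000 or more, and 1 was called again, LINC01629 at 0.498-fold (0.336 to 0.728). WWTR1-AS1, 0.590-fold over all kept cells (0.459 to 0.754), was on the other side at that depth, 2.19-fold from 18 and 51 UMIs (1.28 to 4.06). SMARCA5-AS1 was 1.45-fold there from 9 and 17 UMIs (0.627 to 3.79). The libraries differ in depth, and its part in the lower calls was not tested.

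The sense partners of the antisense genes mostly stayed within 1.5-fold. A partner was found by symbol for 153 of 156 and had 100 or more UMIs for 122, with a median of 0.149 antisense UMIs per sense UMI. In 73 of the 122 pairs both genes lay on the same side of 1. Of 16 antisense genes called in either direction with a measured partner, 13 lay on the side of their partner, and in none was the partner called. Whether pairs shared a side more often than unrelated genes would was not tested. On the other side were PSMD6 (0.937-fold, 0.837 to 1.05), UBE2R2 (0.970-fold, 0.919 to 1.02) and WWTR1 (1.02-fold, 0.988 to 1.06). Several partners on the same side had intervals that held 1, such as SMARCA5 (0.985-fold, 0.897 to 1.08). ADAMTS9, a metalloprotease gene, was 1.35-fold (1.26 to 1.44) beside its antisense gene at 1.82-fold, RORA, a nuclear receptor gene, 1.27-fold (1.12 to 1.45) beside RORA-AS1 at 1.52-fold, and TCF4, a basic helix-loop-helix factor gene, 1.21-fold (1.17 to 1.26) beside TCF4-AS1 at 1.68-fold. PRKCA, a protein kinase C gene, was 0.725-fold (0.680 to 0.772) beside PRKCA-AS1 at 0.615-fold. The median size of the log2 fold was 0.20 for the antisense genes and 0.11 for the partners, whose counts are larger.

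**Figure D5:**
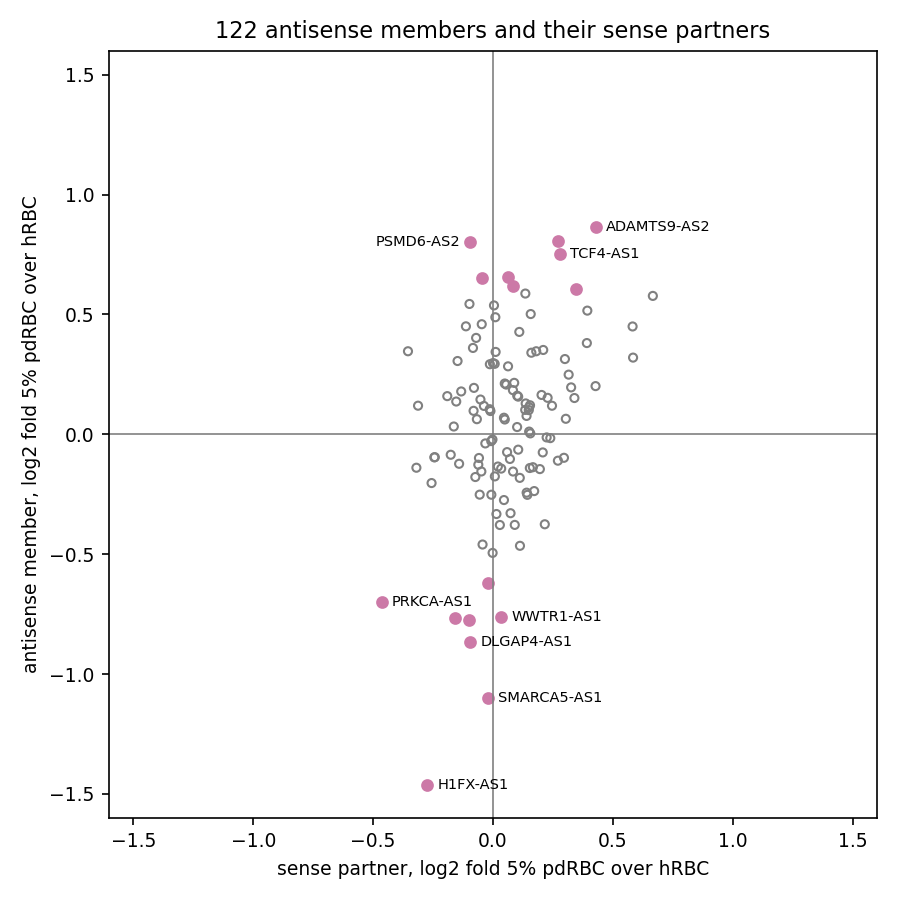
Log2 fold of 5% pdRBC over hRBC for 122 antisense members (vertical axis) against their measured sense partners (horizontal axis), 1 point per pair, filled where the antisense gene was called higher or lower and with 8 of these named. The points spread further up and down than sideways, and 13 of the 16 filled points lie on the same side of 0 as their partner.

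The antisense genes with most UMIs were level between the libraries. HHIP-AS1 was at 231 and 236 CPM (1.02-fold, 0.975 to 1.07), FGD5-AS1, beside an endothelial guanine exchange factor gene, at 62.3 and 65.7 CPM (1.06-fold, 0.962 to 1.16), NUTM2A-AS1 at 144 and 133 CPM (0.925-fold, 0.869 to 0.984) and NUTM2B-AS1 at 87.6 and 81.0 CPM (0.925-fold, 0.854 to 1.00). By MT share HHIP-AS1 lay with the snoRNA hosts, at 0.450-fold in hRBC (0.259 to 0.693) and 0.519-fold in 5% pdRBC (0.321 to 0.763). NUTM2A and NUTM2B are close copies of each other, so their antisense counts may be split between them.

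The promoters of the members called in either direction were searched for the letters of a TATA box and of 4 other motifs. The windows run from 250 bases before to 50 after each RefSeq start, on either strand. TATAAA was found in 8 of 16 members called higher that have an entry (50.0%), in 1 of 6 called lower (16.7%), in 16.5% of 206 members and in 14.0% of all 27195 genes. Among the LINC genes, which make up many of the calls, it was found in 29.8%, and a gene with several starts has several chances. In 3 of the 8 it began within 50 bases before a start. The match began 10 bases before it in LINC00161 and 47 in LINC01619, there on the other strand. In MIR99AHG it began 1 base before the start, so most of its letters lie after it. LINC00161 is shown here with the match in capitals, from 50 bases before to 10 bases from the start.
LINC00161 (chr21:28539268-28539327, plus strand): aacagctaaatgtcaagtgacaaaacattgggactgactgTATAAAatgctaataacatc
The AP-1 letters TGACTCA were in 6.25% of the promoters of members called higher and in 6.01% of all, and the cyclic AMP response letters TGACGTCA in none of 16 and in 2.25% of all. The YY1 letters CCATNTT were in 31.2% and 18.6%, and the longer GCCATNTTG, which contains them, in none and in 3.56%. Of the 6 members called lower with an entry 1 held TGACTCA (16.7%), 1 TGACGTCA (16.7%), 2 CCATNTT (33.3%) and none GCCATNTTG. A match is a description of the letters only.

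The spread of MALAT1 and NEAT1 from cell to cell was wide. Each kept cell of 2000 or more UMIs was thinned to 2000 UMIs, which left out 1180 hRBC and 44 5% pdRBC cells and kept 1375 and 1557. MALAT1 then had a mean of 17.6 UMIs per cell in hRBC and 17.0 in 5% pdRBC, with a variance of 11.0 and 12.5 times its mean, where counting alone gives a ratio near 1. NEAT1 had means of 4.20 and 5.43 with ratios of 4.67 and 5.60. LINC00607 had ratios of 1.57 and 1.99 and MIR31HG 1.39 and 1.93, while SNHG29 had 1.22 and 1.20, NORAD 1.05 and 1.13 and MEG3 1.13 and 1.29. This ratio grows with the mean where cells truly differ, so it does not rank genes of unlike abundance. Across these cells MALAT1 and NEAT1 went together, with a Spearman rho of 0.454 in hRBC and 0.600 in 5% pdRBC, and MALAT1 ran against the ribosomal protein genes, with a rho of -0.426 and -0.363. All these points share their library and depth, and UMIs given to one gene cannot go to another.

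The minimum of 100 UMIs has genes close on both sides. Just inside it lie LINC00639, PSMD6-AS2, SCAMP1-AS1 and UBE2R2-AS1 with 100 UMIs each, and just outside BOLA3-AS1, CIRBP-AS1 and LPP-AS2 with 99. PSMD6-AS2 had 34 UMIs in hRBC and 66 in the other library, and UBE2R2-AS1 had 35 and 65. Both were called higher, and most of their UMIs came from the library where they were higher. Any fewer UMIs in either library would have left them out. Other thinly counted members that were called, such as LINC02392, LINC01812 and H1FX-AS1, also drew most of their UMIs from the library where they were higher. LINC00639 (41 and 59 UMIs) and SCAMP1-AS1 (42 and 58 UMIs) were not called. In the annotation (GENCODE 29) 126 members are typed as antisense, 88 as lincRNA, 44 as processed transcript and 4 as protein-coding. The protein-coding ones include PGGHG, the gene of a glucosidase of hydroxylysine whose symbol ends in HG by chance and which was at 10.7 and 10.6 CPM.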

How the data were processed

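Single HUVEC libraries of the hRBC and the 5% pdRBC group were measured by 10x Genomics 5′ single-cell RNA sequencing. The authors deposited a matrix of unnormalised UMI counts for each library, made with Cell Ranger 7.0.0 on GRCh38, per the submitters' processing notes. The annotation release, intron counting and use of strand are not given in the sources used, so antisense and overlapping genes are uncertain. Positions came from GENCODE 29, matched by identifier for all 266 members, and sequences from RefSeq (GRCh38.p14).

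From the counts, UMIs were summed over kept cells per library and divided by the total (CPM). A fold has 0.5 UMIs added to each sum and an exact Clopper-Pearson 95% interval of the split of the gene's UMIs. Within-library splits used all barcodes and non-MT UMIs, for genes with 100 or more UMIs and 10 or more expected in the smaller arm. No p-value was computed, since each group has 1 library. A count of 0 allows up to 3 counts, 0.225 CPM in hRBC and 0.186 CPM in 5% pdRBC. The fold and its interval were tested on simulated counts that held counting error only. The spread between cells and between libraries was not part of that simulation. No doublet caller was run. Genes of chromosome Y and a few others that could describe a donor were left out beforehand. Python 3.11.15 with numpy 2.4.6, pandas 2.3.3 and scipy 1.17.1 was used.

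The members and lists were chosen with earlier results of these data known. Named were the 6 genes given by name, the 4 members with the most UMIs of each class, up to 12 called higher and 12 lower by size of fold, and the 6 largest and 6 smallest folds by MT share in hRBC with those called in both libraries. Members just inside and outside the minimum were named too. Others, such as SNHG3, SNHG12, MIR99AHG, MIR100HG, MIR155HG, MIR222HG, MIRLET7BHG, VIM-AS1, PCBP1-AS1 and URB1-AS1, were chosen after their values were seen. Alternatives were other sets of cells, depths, denominators, weights, minimums and limits. Some genes of the lists are not reported here.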

Additional observations from a re-analysis of the deposited data

Results flagged for a closer look

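NEAT1 had folds on opposite sides of 1 between deep and shallow cells in the libraries. Cells of 5000 or more UMIs over cells of 1000 to under 2000 UMIs gave 1.13-fold in hRBC (1.09 to 1.18) and 0.454-fold in 5% pdRBC (0.409 to 0.507), where the shallow arm held 44 cells. In hRBC the level did not rise throughout. In barcodes under 5% MT share it was 1747 CPM for 1000 to under 2000 UMIs and 1839 CPM for 2000 to under 5000. It was 2547 CPM for 5000 to under 10000 and 1915 CPM from 10000 on. Of barcodes with 1000 to under 2000 UMIs 31.2% in 5% pdRBC and 2.36% in hRBC had an MT share of 5% or more. The difference between the libraries was not tested, since each is 1 sample.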

How the results depend on the processing

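No paired analysis was possible because each group is 1 library. The 22 higher and 9 lower members came to between 19 and 33 higher and between 6 and 11 lower over all barcodes, stricter cells, deeper cells, cells under 5% MT share, thinned cells and non-MT denominators. Under the same settings 1.32% to 2.83% of all genes were higher and 1.01% to 1.78% lower. Cells under 5% MT share, and those of 10000 or more UMIs, were chosen after seeing the data. The calls were not always the same genes: in cells of 5000 or more UMIs 15 of the 22 higher and 2 of the 9 lower members were called, and in those of 10000 or more 17 and 2. These counts set no minimum of UMIs within the deeper cells. With that minimum, 8 higher and 1 lower were called again in cells of 10000 or more UMIs. Weighting every cell equally, with no interval, gave 35 higher and 13 lower, against 3.2% and 2.52% of all genes. A minimum of 500 UMIs gave 1 higher and 0 lower of 77 members, against 0.672% and 0.532% of all genes. A minimum of 20 UMIs gave 40 and 23 of 664, against 2.44% and 1.67%. A limit of 2-fold gave 5 and 3 of 266, against 0.27% each way. The median log2 fold stayed between 0.05 and 0.08.

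The share of UMIs in the members, 1.703% in hRBC and 1.759% in 5% pdRBC, was 1.717% in hRBC for all barcodes, 1.671% and 1.74% for stricter cells, 1.631% and 1.724% for cells of 5000 or more UMIs, 1.681% and 1.723% under 5% MT share, 1.559% and 1.617% for 10000 or more UMIs, 1.737% and 1.794% over non-MT UMIs, 1.8% and 1.883% thinned, 1.85% and 1.937% with equal weights, and 0.7135% and 0.7456% without MALAT1 and NEAT1. It was higher in 5% pdRBC under each of these.

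By MT share, with 10% or more against under 5%, 2 members were higher and 1 lower of 3 measured in hRBC, and 6 and 6 of 13 in 5% pdRBC. With 20% or more it was 2 and 0 of 2 in hRBC, and 2 and 1 of 3 in 5% pdRBC, where fewer members could be measured. Within 1000 to under 5000 UMIs 4 were lower of 16 in hRBC and 5 of 13 in 5% pdRBC.

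Of 352 values of 44 named members under 8 alternatives 286 stayed within their interval, 61 left it and 5, all of called members, changed side. SMARCA5-AS1 was 1.05-fold and 1.45-fold at 5000 and 10000 or more UMIs, WWTR1-AS1 1.40-fold and 2.19-fold, and PTPRG-AS1 1.05-fold when thinned. A change of side was counted only for members called higher or lower. Members without a call crossed 1 too, such as MALAT1 at 1.05-fold in cells of 5000 or more UMIs. With equal weights NORAD was 0.924-fold and GAS5 1.05-fold. Depth limits most members: with 100 UMIs in all, only large folds leave out 1.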
